A study of Mus musculus with 18 samples.

Results

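The transcription factors that give absorptive cells of the small intestine their identity were followed as a set of 10 genes, Cdx1, Cdx2, Hnf4a, Hnf4g, Gata4, Gata6, Cebpa, Prdm1, Klf4 and Klf5, chosen by gene symbol on the array's annotation. All 10 genes had a probe, 16 probes in all, and 9 genes had a probe that was detected, which means a detection p under 0.05 in at least 3 of 18 arrays. These 9 genes stood among 12804 named genes and 16835 features tested. Each gene was read from its detected probe with the highest mean signal, and the other probes are given where they bear on a result. The data came from ileal epithelium of CD-1 mouse pups, collected by laser capture from 24 sections per animal of the distal 4 cm of ileum, with 1 Illumina bead array per pup. There were 6 groups of 3 pups. At 24 h, when the pups were 12 days old, the groups were Lactobacillus reuteri DSM 17938, L. reuteri ATCC PTA 6475 and PBS vehicle. At 4 h, when the pups were 11 days old, the same 3 treatments were sampled. Each treated pup had a single gavage of 1e+08 cfu in 50 uL PBS, each control pup had 50 uL PBS, and males and females were both used without a sex given for each array. Time after gavage and age therefore cannot be told apart.

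As background, CDX2 and CDX1 are homeodomain proteins that set and keep intestinal fate, and HNF4 alpha and HNF4 gamma are nuclear receptors that act together on enterocyte genes for fat handling and the brush border. GATA4 and GATA6 are zinc finger proteins, with GATA4 known in mice from the proximal small intestine and GATA6 from its whole length. KLF5 is known from dividing crypt cells and KLF4 from cells that have left the cycle, goblet cells among them, C/EBP alpha drives metabolic genes in several differentiated tissues, and PRDM1, also called BLIMP1, is a repressor that in mouse pups holds the gut epithelium in its suckling state.

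The promoter windows of the 3 factors with the smallest p-values for ATCC PTA 6475 against PBS at 24 h are shown here, so that the sequence in front of each gene can be set beside its values. They are the 250 bases before the annotated start, 5′ to 3′ on the gene's strand, from RefSeq with build GRCm38.p6. Windows for 5 of the 10 genes were kept. Capitals mark matches on either strand to any of 7 motifs, given here with the share of all 32851 mouse windows of this length that hold each. The GC box is GGGCGG (32.7%), the CACCC box is named by its letters (52%), the GATA motif is AGATAA (9.99%), the CDX motif is TTTAT (37.3%), the HNF4 motif is CAAAGTCCA (0.384%), the C/EBP motif is TTGCNNAA (9.56%) and the TATA box is TATAAA (12.4%). The Cebpa window is chr7:35119043-35119292 on the plus strand, the Prdm1 window chr10:44458749-44458998 on the minus strand and the Klf4 window chr4:55532476-55532725 on the minus strand.
Cebpa: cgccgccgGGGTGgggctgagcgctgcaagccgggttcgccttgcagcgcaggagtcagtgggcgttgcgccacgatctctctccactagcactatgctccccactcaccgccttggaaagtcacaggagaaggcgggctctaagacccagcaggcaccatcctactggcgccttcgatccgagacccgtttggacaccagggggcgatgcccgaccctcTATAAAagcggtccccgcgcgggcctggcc
Prdm1: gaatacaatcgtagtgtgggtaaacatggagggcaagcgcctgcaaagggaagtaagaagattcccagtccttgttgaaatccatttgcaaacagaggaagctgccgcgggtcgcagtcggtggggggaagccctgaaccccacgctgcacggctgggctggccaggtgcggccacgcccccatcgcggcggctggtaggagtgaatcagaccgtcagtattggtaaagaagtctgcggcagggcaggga
Klf4: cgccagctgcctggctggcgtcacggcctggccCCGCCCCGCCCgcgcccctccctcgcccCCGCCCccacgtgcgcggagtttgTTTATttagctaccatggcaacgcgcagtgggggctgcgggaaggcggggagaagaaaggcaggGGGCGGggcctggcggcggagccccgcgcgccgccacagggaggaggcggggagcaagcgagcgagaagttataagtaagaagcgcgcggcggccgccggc

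The Cebpa window held a TATA box 30 bases before the start, whose last 5 bases also read as the CDX motif on the other strand, and 1 CACCC box 242 bases before the start. The Klf4 window held 4 GC box matches, of which 2 overlap by 1 base at 217 and 212 bases before the start, and 1 CDX motif at 165 bases. The Prdm1 window held none of the 7 motifs. The single Cdx2 window held 1 CACCC box, and 1 of 2 Hnf4a windows held a GATA motif. These are matches of letters only.

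Epithelial markers were present in every group: all 8 epithelial markers and 14 of 16 enterocyte markers were detected, with the probes of Fabp1 and Fabp2 not detected. Markers of other cells were detected too, including all 8 of smooth muscle, all 8 of fibroblasts and all 7 of endothelium. Some were bright, such as the smooth muscle marker Acta2 at a mean normalised log2 signal of 14.97. Which cells gave the signal of each factor was not tested. In such bulk material, fewer cells of a type and less RNA per cell cannot be told apart. Mean raw signal per array ran between 210.3 and 459.7 units, with the lowest value in replicate 2 of ATCC PTA 6475 at 24 h, and 20284 to 22848 probes were detected per array. The number of arrays and the distance of a probe from background limit the precision, with a median SE over all features of 0.18 on the log2 scale for 2 groups compared.

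All levels below are normalised log2 signals, and levels of different probes are not set against each other. Cdx2, Hnf4a, Gata6, Klf5, Klf4 and Cdx1 were far above background in all 18 pups. Prdm1 and Cebpa were detected in all 18 arrays but close to background, with raw signals of 58.9 to 129.7 units for Prdm1 and 52.4 to 133.4 units for Cebpa. Hnf4g was detected in 14 of 18 arrays at 49.9 to 79.7 raw units. Gata4 was detected in 1 of 18 arrays, a PBS pup at 24 h, with raw signals of 35 to 64.7 units and detection p-values of 0.0342 to 0.964, and was not tested.

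The factors differed in how much they varied between pups. The whole range over 18 pups was 1.40-fold for Gata6, 1.41-fold for Cdx2, 1.55-fold for Klf5 and 1.63-fold for Hnf4a. It was 2.18-fold for Prdm1, 2.53-fold for Cebpa and 3.21-fold for Cdx1. The lowest Cdx1 value, 8.38, came from DSM 17938 replicate 1 at 24 h, and the next lowest was 9.33. A second Cdx1 probe ran between 8.89 and 9.98. For Cdx1 the spread lay mostly within groups, with a residual SD of 0.40 against a range of group means of 0.63, while for Cebpa the residual SD was 0.27 and the group means spanned 1.05. Neighbouring groups in the order of levels rarely stood apart: among the 5 steps between the 6 ordered group means, the number larger than the gene's residual SD was 0 for Cdx1, Cdx2, Gata6 and Klf5, 1 for Hnf4a, Prdm1 and Klf4, and 2 for Hnf4g and Cebpa. For Cebpa the order was PBS at 24 h, PBS at 4 h, ATCC PTA 6475 at 4 h, DSM 17938 at 4 h, DSM 17938 at 24 h and ATCC PTA 6475 at 24 h, with the widest step, 0.49, between ATCC PTA 6475 and DSM 17938 at 4 h.

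**Figure D1:**
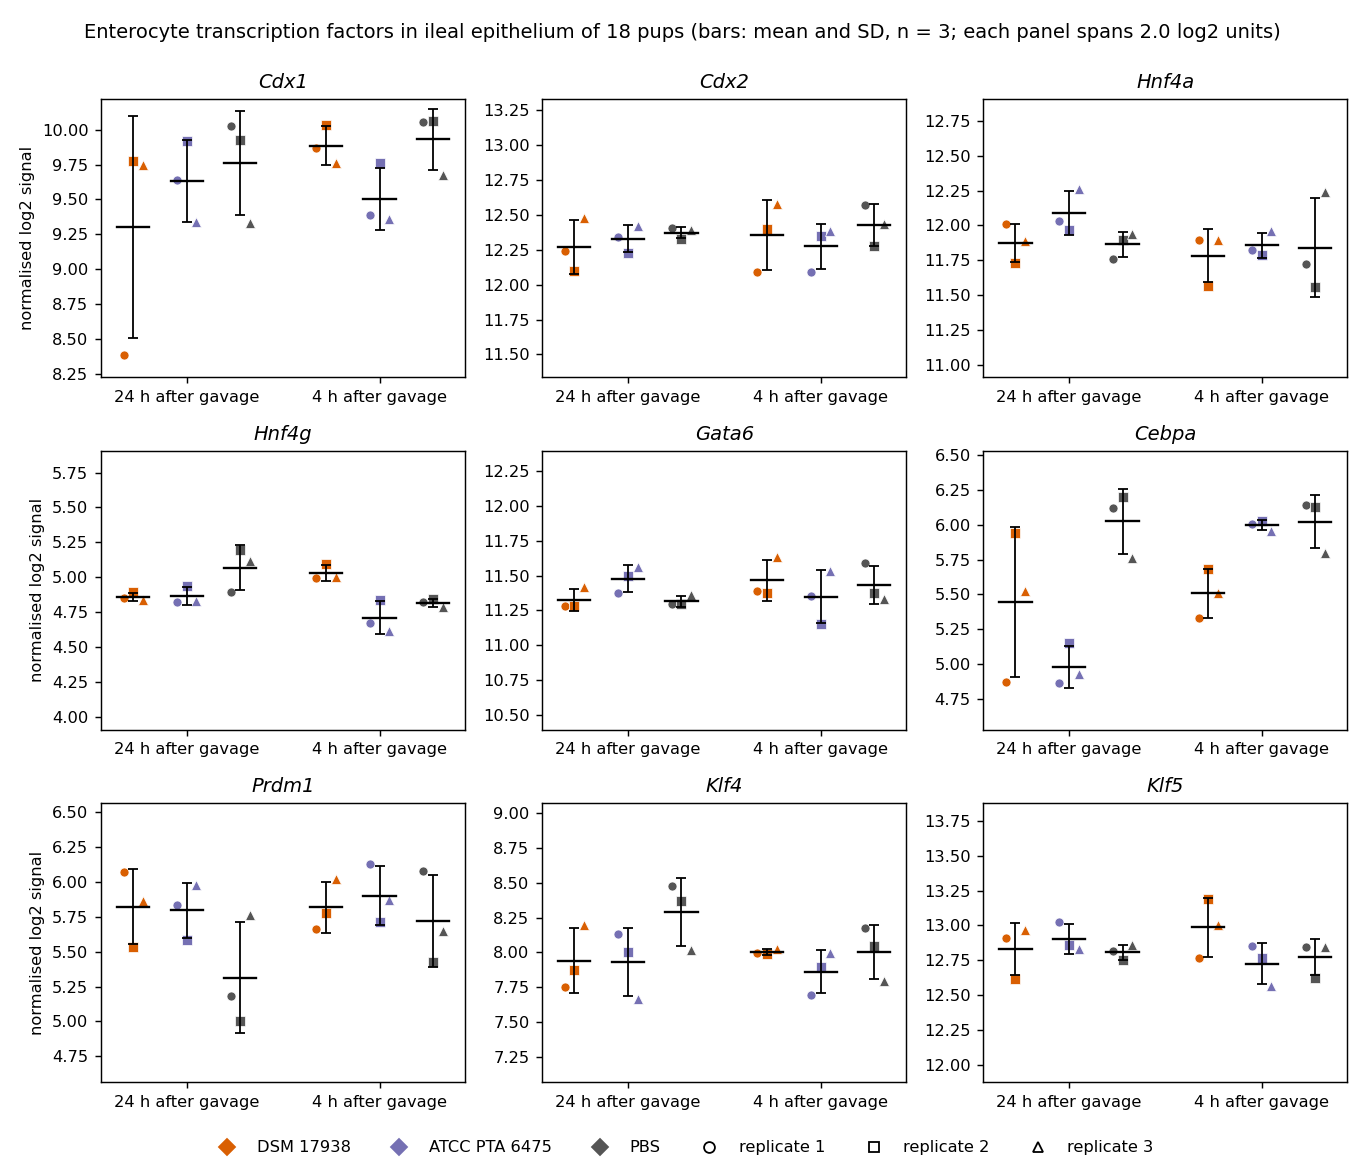
Normalised log2 signal (vertical axis, 2.0 log2 units in each panel) of 9 factors in every pup, with 24 h left of 4 h and, within each time, DSM 17938 (orange), ATCC PTA 6475 (purple) and PBS (grey). Horizontal lines are group means and bars are SDs of 3 pups, and marker shapes are the replicate numbers. Cebpa in ATCC PTA 6475 pups at 24 h lies between 4.86 and 5.15, below all PBS pups.

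The first question was whether either strain changed any factor against vehicle. No factor passed an adjusted p of 0.05 in limma, fitted without a replicate block and with Benjamini-Hochberg adjustment over 16835 features, and neither did any other feature. The share of all features past that threshold was 0% for DSM 17938 at 24 h, 0% for ATCC PTA 6475 at 24 h, 0% for DSM 17938 at 4 h and 0% for ATCC PTA 6475 at 4 h. At an unadjusted p under 0.05, 3 of 9 factors passed for ATCC PTA 6475 at 24 h (1 higher, 2 lower), where 15.1% of all features did. For DSM 17938 at 24 h 2 of 9 passed, against 4.98% of all features, for DSM 17938 at 4 h 1 of 9, against 3.34%, and for ATCC PTA 6475 at 4 h 0 of 9, against 3.33%. Treated and PBS pups did not overlap for 3 of 9 factors with ATCC PTA 6475 at 24 h, where 21.4% of all features did not overlap. The same count was 0 for DSM 17938 at 24 h (9.04% of all features), 2 for DSM 17938 at 4 h (8.05%) and 0 for ATCC PTA 6475 at 4 h (7.7%). The median difference of the 9 factors was -0.04 for ATCC PTA 6475 at 24 h, beside 0.02 over all features. At each time both strains were compared with the same 3 PBS pups. These counts are from the fit without a replicate block. With a replicate block, Cebpa and other features passed the adjusted threshold for ATCC PTA 6475 at 24 h, as given in the closing section.

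Cebpa, which encodes C/EBP alpha, had the lowest p of the factors in both strains at 24 h. In ATCC PTA 6475 pups at 24 h its log2 signals were 4.86, 5.15 and 4.93, and in PBS pups at 24 h they were 6.12, 6.20 and 5.76. Every treated pup lay below every PBS pup, and the treated pups lay close together. The means were 4.98 ± 0.15 and 6.03 ± 0.23 (SD, n = 3 each), a difference of -1.05 (SE 0.21, 95% interval -1.49 to -0.60) or 2.06-fold lower, with an adjusted p of 0.123. Its unadjusted p of 0.000127 ranked 13th of 16835 features. The size depends on how background is treated: it was -1.05 after background correction, -0.58 in the authors' deposited log2 values and -0.60 with a larger offset. All 3 treated pups had detection p-values of 0.0182 to 0.0395 for this probe, so the lower level was near the limit of detection.

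The DSM 17938 pups also lay lower than PBS pups in Cebpa at both times, with more spread. At 24 h the DSM 17938 pups had 4.87, 5.94 and 5.53, against 6.12, 6.20 and 5.76 in PBS pups. Replicate 2 lay within the PBS range and the others below it, so the groups overlapped. The difference was -0.58 (SE 0.21, adjusted p = 0.911), and it was -0.29 without DSM 17938 replicate 1 and -0.33 in the authors' deposited log2 values. At 4 h the DSM 17938 pups had 5.33, 5.68 and 5.51, against 6.14, 6.12 and 5.80 in PBS pups. These groups did not overlap, and the difference was -0.51 (SE 0.21, adjusted p = 1.00), or -0.30 in the authors' deposited log2 values. ATCC PTA 6475 pups at 4 h stood at 6.01, 6.03 and 5.96, inside the PBS range, and differed from PBS by -0.02.

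Because C/EBP alpha is also known from myeloid cells, the myeloid markers are given beside it. Of 12 myeloid markers 8 were detected, with Cd68, Itgam, Itgax and Fcer1g not detected. Their summed normalised signal was 706 to 894 in ATCC PTA 6475 pups, 548 to 958 in DSM 17938 pups and 834 to 1829 in PBS pups at 24 h. The median difference from PBS at 24 h was -0.33 over 8 markers for ATCC PTA 6475 and -0.30 for DSM 17938. In each strain 2 of 8 were lower at an unadjusted p under 0.05, beside 15.1% and 4.98% of all features. These were the neutrophil genes S100a8 and S100a9, at -2.11 and -1.53 for ATCC PTA 6475 and at -2.59 and -1.79 for DSM 17938. For DSM 17938 the other detected markers lay between -0.39 (Csf1r) and 0.13 (Adgre1), with Csf3r at -0.04. The part of myeloid cells in the Cebpa difference was not tested. The summed enterocyte markers at 24 h overlapped, at 49372 to 56579 in ATCC PTA 6475 pups and 53882 to 64984 in PBS pups.

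Prdm1, the suckling-stage repressor, leaned the other way at 24 h. Its log2 signals were 6.07, 5.54 and 5.86 in DSM 17938 pups, 5.83, 5.59 and 5.98 in ATCC PTA 6475 pups, and 5.18, 5.0 and 5.76 in PBS pups. PBS replicate 3 reached into the range of both strains, while the other PBS pups lay below all treated pups. The difference from PBS was 0.51 for DSM 17938 (SE 0.21, adjusted p = 0.911) and 0.48 for ATCC PTA 6475 (SE 0.21, adjusted p = 0.301). Leaving out PBS replicate 3 gave 0.73 for DSM 17938 and 0.71 for ATCC PTA 6475, and leaving out PBS replicate 2 gave 0.35 and 0.33. A second Prdm1 probe, detected in 4 of 18 arrays, differed by -0.07 for DSM 17938 and 0.003 for ATCC PTA 6475, and correlated with the first at r = 0.17 over 18 arrays. At 4 h the Prdm1 differences were 0.10 for DSM 17938 and 0.18 for ATCC PTA 6475. Of the 6 groups, PBS pups at 24 h had the lowest Prdm1 mean, 5.31, and the widest step was to PBS pups at 4 h, at 5.72. In PBS pups the difference of 24 h minus 4 h was -0.41 (SE 0.21, adjusted p = 0.999). PRDM1 is also known from plasma cells, of whose 7 markers 4 were detected, with Jchain, Igha and Tnfrsf17 not detected. At 24 h the 4 summed to 242 to 279 in DSM 17938 pups, 220 to 335 in ATCC PTA 6475 pups and 229 to 314 in PBS pups. The brightest of them was Sdc1, at a mean log2 signal of 7.03, and which cells gave its signal was not tested. The part of plasma cells in the Prdm1 values was not tested.

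Klf4, the factor of non-dividing and goblet cells, lay lower in treated pups at 24 h. It had 8.13, 8.00 and 7.66 in ATCC PTA 6475 pups and 7.75, 7.88 and 8.20 in DSM 17938 pups, against 8.48, 8.37 and 8.01 in PBS pups. In each strain 1 pup lay above PBS replicate 3, so the groups overlapped. Of the 6 groups, PBS pups at 24 h had the highest Klf4 mean, 8.29. The widest step between the ordered means was from there to PBS pups at 4 h, at 8.00. For ATCC PTA 6475 the difference was -0.36 (SE 0.17, adjusted p = 0.319), and with arrays scaled to a common median, which moved the median of all features to -0.16, it was -0.62. Without ATCC PTA 6475 replicate 3 it was -0.22. For DSM 17938 it was -0.35 (SE 0.17, adjusted p = 0.911). Of the other Klf4 probes, 1 gave -0.35 for ATCC PTA 6475 and -0.40 for DSM 17938, and the other gave 0.02 and -0.25. Klf5, the factor of dividing crypt cells, averaged 12.90 ± 0.11 in ATCC PTA 6475, 12.83 ± 0.19 in DSM 17938 and 12.81 ± 0.06 in PBS pups at 24 h (SD, n = 3 each), and differed from PBS by at most 0.22 in any strain and time, the value for DSM 17938 at 4 h. A second Klf5 probe was not detected in any array.

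**Figure D2:**
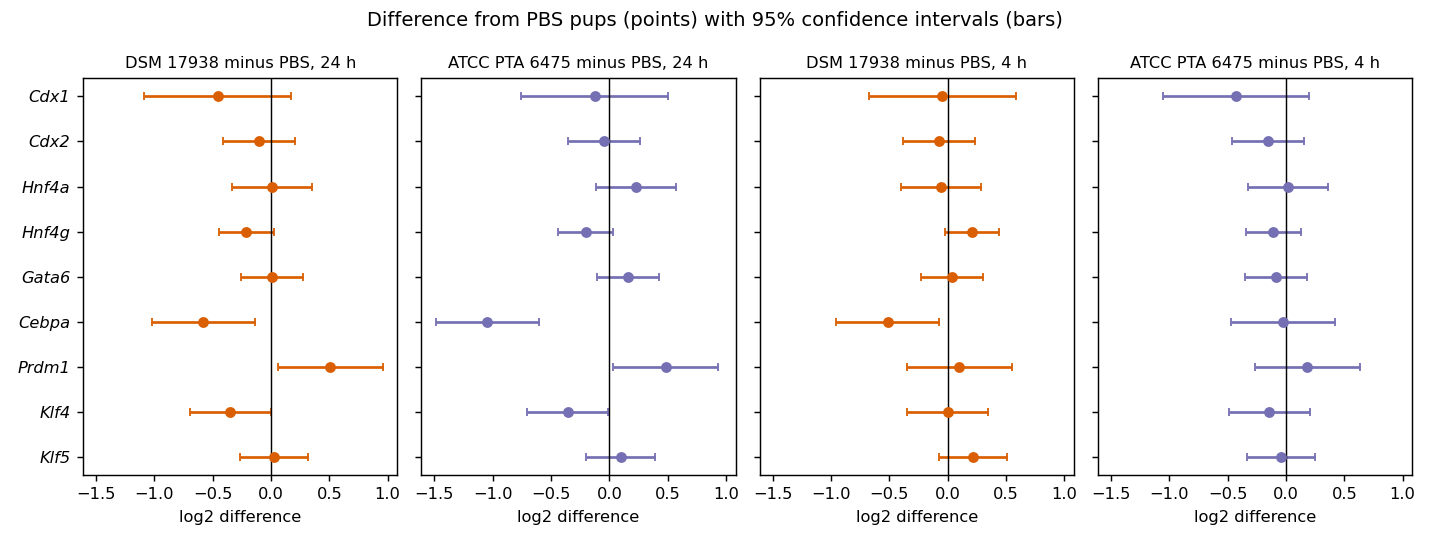
Log2 difference from PBS (horizontal axis) for each factor in 4 comparisons, with 95% confidence intervals as bars. The Cebpa interval for ATCC PTA 6475 at 24 h, -1.49 to -0.60, lies farthest from 0, and most other intervals include 0.

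Cdx1 and Cdx2, the homeodomain factors of intestinal fate, showed no difference that passed the test. Cdx1 had 8.38, 9.78 and 9.74 in DSM 17938 pups, 9.64, 9.92 and 9.34 in ATCC PTA 6475 pups, and 10.02, 9.93 and 9.33 in PBS pups at 24 h. DSM 17938 replicate 1 was the lowest Cdx1 value of all 18 pups, and the same pup was low in Cebpa. At 4 h Cdx1 had 9.39, 9.76 and 9.36 in ATCC PTA 6475 pups and 9.87, 10.03 and 9.76 in DSM 17938 pups, against 10.05, 10.06 and 9.68 in PBS pups. The lowest p for ATCC PTA 6475 against PBS at 4 h was that of Cdx1, at -0.43 (SE 0.30, adjusted p = 1.00). Its second probe gave -0.34 in that comparison and correlated with the first at r = 0.84. Cdx2 differed from PBS by -0.04 for ATCC PTA 6475 and -0.10 for DSM 17938 at 24 h, and by -0.15 and -0.07 for the same strains at 4 h, each with an SE of 0.15.

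For the HNF4 receptors no difference from PBS passed the test. Hnf4a had 12.03, 11.97 and 12.26 in ATCC PTA 6475 pups at 24 h, against 11.76, 11.90 and 11.94 in PBS pups. These groups did not overlap, by a small gap, and the difference was 0.23 (SE 0.16, 95% interval -0.12 to 0.57, adjusted p = 0.555). In the other strain comparisons with PBS it lay between -0.06 and 0.02. Hnf4g, read near background, differed from PBS by -0.20 for ATCC PTA 6475 and -0.21 for DSM 17938 at 24 h, and by -0.11 and 0.21 at 4 h, with an SE of 0.11. At 4 h the DSM 17938 pups had 4.99, 5.09 and 5.0, all above the PBS pups at 4.82, 4.84 and 4.79.

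Gata6, the GATA factor of the whole small intestine, was the steadiest of the bright factors by its chosen probe. It had 11.37, 11.50 and 11.56 in ATCC PTA 6475 pups at 24 h, against 11.29, 11.30 and 11.36 in PBS pups. The groups did not overlap, by a narrow gap. The difference was 0.16 (SE 0.13, adjusted p = 0.600). A second, dimmer Gata6 probe, assigned by the annotation through another transcript record, had 8.21, 8.21 and 8.42 in ATCC PTA 6475 pups and 7.69, 7.38 and 7.91 in PBS pups at 24 h. Its difference was 0.62 (SE 0.20, unadjusted p = 0.00704, outside the adjustment), and it correlated with the first probe at r = 0.44 over 18 arrays. The 2 probes thus gave the same direction and unequal sizes, and for DSM 17938 at 24 h they gave 0.01 and 0.26.

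**Figure D3:**
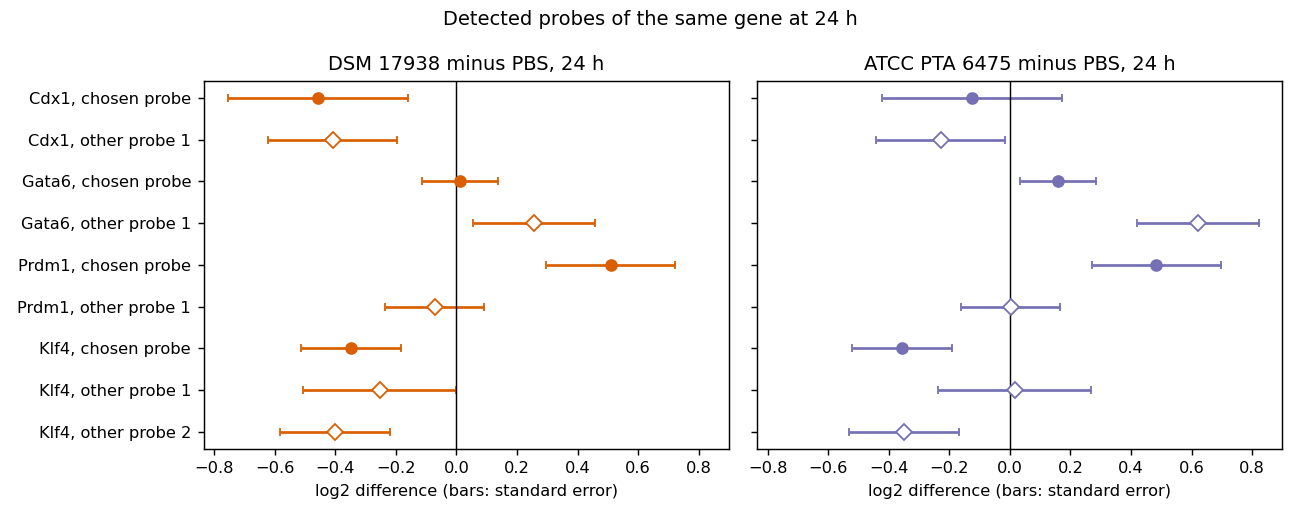
Log2 difference from PBS at 24 h (horizontal axis, bars are standard errors) for every detected probe of the 4 factors with more than 1 detected probe, with filled circles for the chosen probe and open diamonds for others. The Prdm1 probes stand at 0.48 and 0.003 for ATCC PTA 6475, and the Gata6 probes at 0.16 and 0.62.

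The strains were also compared with each other. No factor passed the adjusted threshold, and 0% of all features did at 24 h and 0% at 4 h. At an unadjusted p under 0.05, 1 of 9 factors passed at 24 h, beside 4% of all features, and 2 of 9 at 4 h, beside 3.38%. At 24 h this was Cebpa, with a difference of ATCC PTA 6475 minus DSM 17938 of -0.47 (SE 0.21, adjusted p = 1.00), which was -0.75 without DSM 17938 replicate 1 and -0.22 without replicate 2. At 4 h Cebpa differed the other way, by 0.49 (SE 0.21, adjusted p = 1.00). In the authors' deposited log2 values these differences were -0.24 at 24 h and 0.29 at 4 h. Hnf4g differed at 4 h by -0.32 (SE 0.11, adjusted p = 1.00), or -0.15 with an offset of 50, with 4.67, 4.84 and 4.62 in ATCC PTA 6475 pups, all below the DSM 17938 pups, and with 1 of 3 ATCC PTA 6475 arrays detecting the probe.

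Between 24 h and 4 h, which also separates pups of 12 and 11 days, no factor passed the adjusted threshold, and the share of all features that did was 0% in ATCC PTA 6475 pups, 0% in DSM 17938 pups, 0% in PBS pups and 0% for the mean of the 3 treatments. Unadjusted p-values under 0.05 were found for 1 of 9 factors in ATCC PTA 6475 pups (5.92% of all features), 0 of 9 in DSM 17938 pups (2.47%), 1 of 9 in PBS pups (3.81%) and 1 of 9 for the mean (5.71%). Cebpa in ATCC PTA 6475 pups had 4.86, 5.15 and 4.93 at 24 h, against 6.01, 6.03 and 5.96 at 4 h. These groups lay well apart, with a difference of -1.02 (SE 0.21, 2.02-fold lower, adjusted p = 0.598), the 4th smallest p of 16835, and it was -0.55 in the authors' deposited log2 values. In PBS pups Cebpa differed by 0.004 between the times, and over the mean of the 3 treatments by -0.36 (SE 0.12, adjusted p = 0.771), or -0.19 in the authors' deposited log2 values. Hnf4g in PBS pups had 4.89, 5.20 and 5.12 at 24 h, against 4.82, 4.84 and 4.79 at 4 h, a difference of 0.25 (SE 0.11, adjusted p = 0.999), or 0.12 in the authors' deposited log2 values. In DSM 17938 pups the lowest p was that of Cdx1, at -0.59 (SE 0.30, adjusted p = 1.00), which was -0.13 without DSM 17938 replicate 1 at 24 h and -0.24 by the second probe.

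Whether the change between the times differed from that in PBS pups was tested directly. The share of all features past the adjusted threshold was 0% for ATCC PTA 6475 and 0% for DSM 17938, and no factor passed. At an unadjusted p under 0.05, 1 of 9 factors passed for ATCC PTA 6475 (4.7% of all features) and 1 of 9 for DSM 17938 (2.21%). The Cebpa change was lower in ATCC PTA 6475 than in PBS pups by a difference of -1.02 (SE 0.30, unadjusted p = 0.00325, adjusted p = 1.00), which was -0.56 in the authors' deposited log2 values. The Hnf4g change differed by -0.42 in DSM 17938 against PBS pups (SE 0.16, adjusted p = 1.00), and by -0.20 with an offset of 50.

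Genes around these factors were counted for ATCC PTA 6475 against PBS at 24 h, where none of the lists held a gene past the adjusted threshold and 15.1% of all features had an unadjusted p under 0.05. Of 30 relatives of the factors 20 were tested, 0 higher and 1 lower at an unadjusted p under 0.05, a smaller share than that of all features, with a median of 0.09. The 1 was Cebpg, a C/EBP family member that lacks an activation domain, at -0.45 (SE 0.20, adjusted p = 0.297). Of 40 other transcription factors of the gut epithelium 28 were tested, 3 higher and 2 lower, a share near that of all features, with a median of 0.16 beside 0.02 over all features. The smallest p-values were those of Tcf7l2, the nuclear partner of beta-catenin, at 0.54 (SE 0.13, adjusted p = 0.130), Rxra, a partner of many nuclear receptors, at -0.67 (SE 0.19, adjusted p = 0.142), and Sox9, a crypt factor, at 0.50 (SE 0.18, adjusted p = 0.224).

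Of 35 enterocyte genes with described ties to the factors 31 were tested, with 1 higher and 0 lower at an unadjusted p under 0.05 and 11 of 31 above 0, for a median of -0.12. This share too was below that of all features. The chloride and bicarbonate exchanger Slc26a3 stood at 0.51, the guanylin receptor Gucy2c at -0.54 and the acyl-CoA synthetase Acsl5 at -0.36, with adjusted p-values of 0.246, 0.336 and 0.370. Of 18 suckling-stage genes 17 were tested, 2 higher and 2 lower beside the same 15.1%, with a median of -0.18. Hsd3b2, a steroid dehydrogenase, stood at 0.84 (SE 0.15), Asl, the urea cycle lyase, at -1.33 (SE 0.28), and Lamp1, a lysosomal membrane protein, at -0.50 (SE 0.19). In DSM 17938 pups at 24 h the suckling-stage list had 1 higher and 1 lower, beside 4.98% of all features, and a median of -0.10. In ATCC PTA 6475 pups at 4 h it had 0 higher and 0 lower, beside 3.33%, and a median of -0.15. In DSM 17938 pups at 4 h it had 0 higher and 5 lower, beside 3.34%, with 1 of 17 above 0 and a median of -0.36, beside 0.01 over all features. The 5, named here after their values were seen, were G6pc and Pck1 of glucose synthesis at -1.84 and -1.25, Lct, lactase, at -1.31, Cyp11a1 of steroid synthesis at -0.86 and Ass1 of arginine synthesis at -0.45, each with an adjusted p of 1.00. In the same comparison 4 of 14 enterocyte markers had an unadjusted p under 0.05, beside the same 3.34%, all lower: Lct again, Rbp2 (-1.06), Apoc3 (-0.64) and Apoa1 (-0.48). These 4 too were named after their values were seen. Of the 14, Vil1, Cdh17, Mep1b and Slc5a1 lay above 0, by at most 0.17, and the others below 0. Among the enterocyte genes with ties to the factors, Krt20 was higher at that threshold, at 0.80, while Lct, Apoc3 and Apoa1 were lower. Of 6 post-weaning genes 3 were tested. For ATCC PTA 6475 against PBS at 24 h, Sis, sucrase-isomaltase, stood at -0.17, Treh, trehalase, at 0.13 and Lgals2, a lectin, at 0.02.

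The factors were also set against each other over the 18 pups, in 36 pairs. Pearson's r ran between -0.61 and 0.57, 8 pairs had an unadjusted permutation p under 0.05, and 0 passed after Benjamini-Hochberg adjustment over the 36 pairs, where the lowest adjusted p was 0.181. The strongest r, for Prdm1 and Klf4, was -0.61 (permutation p = 0.00717, adjusted p = 0.181), but rho was -0.35 and r was -0.19 without the 2 pups farthest from the median of Prdm1, so the relation rested on those pups. Within the pups of each replicate number its r was -0.79, -0.88 and 0.05. By Spearman's rho 1 pair passed: Cdx1 and Hnf4a had rho = -0.72 (permutation p = 0.00103, adjusted p = 0.0371) and r = -0.50 (permutation p = 0.0385, adjusted p = 0.218), and r = -0.64 without the 2 pups farthest from the median of Cdx1. Within the pups that share a replicate number, 6 in each, its r was -0.64, -0.48 and -0.25. Hnf4a and Cebpa had r = -0.57 (permutation p = 0.0121, adjusted p = 0.181) and rho = -0.62 (permutation p = 0.00721, adjusted p = 0.110), and r = -0.62 without the 2 farthest pups. Within numbers its r was -0.98, -0.37 and -0.42. All signals come from 1 array per pup and share its normalisation. The permutations ran over all pups, not within groups or replicate numbers, so these p-values allow for neither.

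**Figure D4:**
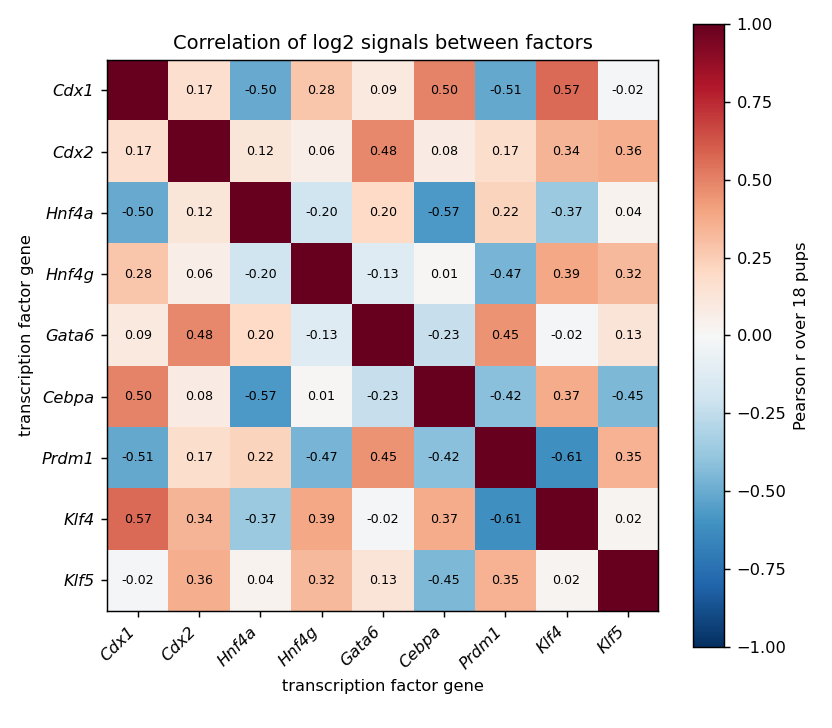
Pearson correlation of log2 signals between each pair of factors over 18 pups (colour and printed value, red for positive and blue for negative). Values lie between -0.61 and 0.57, and the strongest negative pair, Prdm1 with Klf4, stands at -0.19 without the 2 pups farthest from the median of Prdm1.

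The genes whose signals ran most alike to a factor over the 18 arrays are given as a description, with no test. For Cebpa they were Rab1b (r = 0.88), Arf5 (0.87) and Mrrf (0.87), and Pold3 was most opposed (-0.89). For Prdm1 they were Slf2, Ovgp1 and Ube4b (each 0.86), with Utp6 most opposed (-0.82), and for Klf4 they were H2bc15, Mocs3 and Pold2 (each 0.82), with Zcchc24 most opposed (-0.85). For Hnf4a they were Pus3 (0.88), Daam1 (0.87) and Lpar1 (0.85), with Tmed3 most opposed (-0.86). For Hnf4g they were Bcorl1 (0.81), Ppa1 (0.81) and Ndufaf3 (0.80), with Lbh most opposed (-0.78). For Cdx1 they were Ccl6 (0.87), Fxyd3 (0.83) and Patj (0.81), with Taok3 most opposed (-0.82). Cdx2 ran most like Lnx2 (0.82), S100pbp (0.78) and the tight junction gene Ocln (0.78), and most opposed to Lgi2 (-0.78). Gata6 ran most like Atp6v1h (0.80) and Atp6ap2 (0.79), both of the vacuolar proton pump, and Nckap5 (0.78), and most opposed to Ptp4a3 (-0.77). Klf5 ran most like Pex11a (0.77), Cracdl (0.77) and Dus2 (0.75), and most opposed to Gnaq (-0.84).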

How the data were processed

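Transcripts of laser-captured ileal epithelium were measured on 18 single-colour Illumina mouse arrays, 3 per group. Per the submitters' processing notes the authors used GenomeStudio, without a version. Per the labels' protocols, RNA was isolated with a PicoPure kit and biotin-labelled with an Ambion MessageAmp kit. The authors deposited 1 intensity per probe and array, on a linear scale. The deposited detection column is a fraction that rises with the signal and was read as 1 minus the detection p. A second table that the authors deposited holds log2 values and was used only as an alternative. Its background correction is not stated in the labels or headers read.

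The neqc function of limma 3.58.1 (R 4.3.3) took background from the detection values, added an offset of 16, quantile-normalised the arrays and took log2, so every difference is relative to a shared distribution. A probe was kept where 3 or more arrays had a detection p under 0.05, which left 24506 of 45281 probes, and the detected probe of highest mean stood for its gene, giving 16835 features. Symbols came from the platform annotation: 34885 probes had 1 symbol, 18 several and 10378 none. The 6 group means were fitted over all 18 arrays (12 residual and 4.25 prior degrees of freedom), and p-values were adjusted by Benjamini-Hochberg over all features in each of 12 comparisons. The labels gave the group, a letter A, B or C and a mouse of its own for every array. The letters are written here as replicate numbers 1 to 3. An exact permutation test of 3 pups against 3 cannot go below p = 0.1, two-sided. Pairs of factors were tested with 100000 permutations over all pups, two-sided, not held within groups or replicate numbers. The fit was tested on simulated data. No slide or scan date was available to use as a batch.

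The factors and gene lists were chosen with earlier results of these data known. Each factor with an unadjusted p under 0.05 in a comparison was named, or else the one with the smallest p. Up to 3 genes per list were named by smallest p for ATCC PTA 6475 against PBS at 24 h, and for each factor the 3 genes most alike and the 1 most opposed. Alternatives covered the offset, the scaling, the deposited values, the detection filter, the replicate block, array weights, the arrays in the fit, the probe and leaving out each array.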

Additional observations from a re-analysis of the deposited data

How the results depend on the processing

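Counts of factors called were recomputed in each comparison under each alternative setting that applied to it. This gave 203 counts over the 12 comparisons, and 202 were 0, as in the values reported. The exception was the replicate block for ATCC PTA 6475 against PBS at 24 h, which called 1 factor, Cebpa (-1.05, adjusted p = 0.0212, within a range of 0.0212 to 0.513 over all its alternatives), among 246 of all features called in place of 0. The labels do not say that a replicate number marks a shared litter or day. Same-numbered arrays of different groups had deviations from their group means correlated at a median r of 0.157 (-0.05 to 0.51), over 0.1 in 31 of 45 pairs. Of 18 arrays, 17 correlated best with their own number. In the column headers the array numbers run consecutively within each replicate number, with 1 array of every group in each. The headers name no litter, day or slide for these runs.

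Of 16 named differences, 258 of 260 alternative values kept their direction. The 2 that turned came from the next brightest probe: Prdm1 for DSM 17938 against PBS at 24 h (-0.0721) and Klf4 for ATCC PTA 6475 against PBS at 24 h (0.0157). Leaving out 1 array moved Cebpa for ATCC PTA 6475 against PBS at 24 h between -1.18 and -0.96. Single arrays also let other features pass: 10 for DSM 17938 against PBS at 4 h without DSM 17938 replicate 1, 8 for ATCC PTA 6475 against DSM 17938 at 4 h without the same array, and at most 3 in other comparisons. Fitting the compared arrays alone called 6 features for DSM 17938 against PBS at 24 h and 6 for 24 h against 4 h in PBS pups. Every other setting called at most 1 feature in a comparison. With arrays scaled to a common median, the median of all features was -0.17 between the strains at 24 h (ATCC PTA 6475 minus DSM 17938), -0.16 and -0.11 between ATCC PTA 6475 and PBS at 24 h and 4 h, and -0.12 between 24 h and 4 h in ATCC PTA 6475 pups. Signal near background limits Cebpa, Prdm1, Hnf4g and Gata4.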
